A study of Mus musculus with 19 samples.

Results

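Small RNA of unexposed mouse sperm was read with 2 library methods, PANDORA-seq and traditional RNA-seq, and the read shares given by the 2 methods were compared. The members were the 4 PANDORA-seq control libraries and the 5 traditional control libraries, 9 of the 19 samples of the series. They were chosen by library method and by the control name in their titles, and no measured value was used. The sperm came from the cauda epididymis of C57BL/6J wild-type males, 8 weeks old at the start, that received corn oil by gavage for 4 weeks, and somatic cells were lysed before RNA was extracted. RNA of 15 to 50 nt was cut from a gel for both methods. In PANDORA-seq it was then treated with the enzymes AlkB and T4PNK before the libraries were made, while in traditional RNA-seq it was not treated. The labels give DCHP, the phthalate under study, as the treatment of every library, so that control status rests on the titles. The study put sperm RNA of control sires through both methods, but which libraries of the 2 methods share mice is not given in the sources used here, and the libraries were compared as unpaired samples. The p-values measure the spread between these libraries, which may be technical.

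Library methods reach different parts of the small RNA pool. Adapter ligation needs a phosphate at the 5′ end and a hydroxyl at the 3′ end of an RNA, which mature miRNAs carry from their cleavage by Drosha and Dicer. Fragments of tRNAs and rRNAs, called tsRNAs and rsRNAs, often end in a 5′ hydroxyl or a 3′ phosphate, and carry methyl groups on their bases that halt reverse transcription. T4PNK converts such ends and AlkB removes such methyl groups, and mature sperm, which hardly transcribe, are known to be rich in tsRNAs and rsRNAs.

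Shown first are abundant miRNAs and the reads of 2 rRNAs with the largest difference in mean read share between the methods, in each direction. The comparison turns on them. The fragments are printed as read, with the first base in capitals, because the first base of the reads is described later. Each number range is the position of the read in the mature RNA, counted from its 5′ end.
18S rRNA 1034 to 1063: Aagaacgaaagtcggaggttcgaagacgat
18S rRNA 136 to 163: Ctcctacttggataactgtggtaattct
5S rRNA 84 to 119: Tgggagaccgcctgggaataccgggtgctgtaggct
5S rRNA 105 to 119: Cgggtgctgtaggct
miR-148a-3p: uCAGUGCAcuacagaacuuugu
miR-10a-5p: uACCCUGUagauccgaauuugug
miR-10b-5p: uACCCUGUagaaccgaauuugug
miR-21a-5p: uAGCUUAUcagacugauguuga
let-7f-5p: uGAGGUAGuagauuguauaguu
let-7c-5p: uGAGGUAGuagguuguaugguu
The miRNAs are the mature sequences of RefSeq on GRCm38.p6, with the seed, bases 2 to 8, in capitals. miR-10a-5p and miR-10b-5p share a seed, and so do let-7f-5p and let-7c-5p. The 18S reads lie at chr17:39847386-39847415 and chr17:39846488-39846515 on the forward strand of GRCm38. The first of them differs from the reference at position 1051, where between 99.8886% and 99.9899% of the reads of a library differed from it. miR-148a-3p lies at chr6:51269829-51269850 on the reverse strand, miR-10a-5p at chr11:96317186-96317208 on the forward strand, miR-10b-5p at chr2:74726074-74726096 on the forward strand and miR-21a-5p at chr11:86584120-86584141 on the reverse strand.

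The libraries held between 25432054 and 56506344 reads in PANDORA-seq and between 24184769 and 52099239 reads in traditional RNA-seq, at lengths of 15 to 45 nt. A read was matched to known RNAs in the sense direction with at most 1 mismatch. Between 42.3% and 47.8% of the PANDORA-seq reads and between 13.8% and 25.7% of the traditional reads matched. The 28S rRNA, most nuclear tRNAs and repeats were not used here, so the unmatched reads are not all unknown RNA. Sperm markers were present with both methods: the 8 mRNAs of sperm and late spermatids, such as the protamines, summed to between 172 and 238 reads per 1000000 reads (RPM, the share of all reads of the library) in PANDORA-seq and between 165 and 333 RPM in traditional RNA-seq. Of these 8 mRNAs, 2 were called higher in PANDORA-seq, 1 lower and 5 not called, beside 67.1% higher and 8.63% lower of all genes tested. Odf1 stood at 87.9 RPM in PANDORA-seq against 29.7 RPM in traditional RNA-seq, and Smcp at 57.4 against 161 RPM. Markers of other cells also moved with the method. The 5 epididymal epithelial miRNAs of the miR-200 family summed to between 2.63 and 8.12 RPM in PANDORA-seq and between 553 and 1504 RPM in traditional RNA-seq, whereas the 6 epididymal mRNAs summed to between 403 and 744 RPM against between 58.1 and 172 RPM. Most of that mRNA sum was Crisp1, at a mean of 522 against 90.3 RPM, while Lcn8 had no reads and Lcn5 and Spink13 had too few to be tested. The 4 smooth muscle miRNAs gave between 2.63 and 14.4 RPM against between 1391 and 6307 RPM, and the 2 smooth muscle mRNAs between 18.7 and 27.7 RPM against between 2.27 and 26.6 RPM. The 4 blood miRNA hairpins, among them Mir486 and Mir3107, which share their reads, gave between 1.49 and 2.38 RPM against between 52.5 and 161 RPM, and the 4 globin mRNAs between 5.48 and 26.6 RPM against between 0.134 and 1.91 RPM. Mir122, the hepatocyte miRNA, ranged from 9.52 to 129 RPM in PANDORA-seq and from 806 to 70134 RPM in traditional RNA-seq, and the liver mRNAs Alb and Apoa2 summed to between 0.303 and 5.43 RPM against between 13.2 and 50.8 RPM. The part of other cells in the differences between methods was not tested.

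Nuclear rRNA and mRNA fragments took larger shares of the reads in PANDORA-seq, and miRNA hairpins, mitochondrial rRNA and the tRNAs used here took smaller ones. The tRNA class held 13 of 408 nuclear loci and the 22 mitochondrial tRNAs, so the share of all tRNA fragments was not measured. Of 12 classes, 5 were higher (41.7%) and 5 lower (41.7%) at an adjusted p below 0.05 in a two-sided exact permutation test, in which 4 against 5 libraries cannot give a p under 0.00794. Shares per library are given in the order of replicates 1 to 4 of PANDORA-seq and 1 to 5 of traditional RNA-seq. Nuclear rRNA took 30.97%, 36.2%, 30.7% and 27.9% of the PANDORA-seq reads, and 5.27%, 4.05%, 5.62%, 4.21% and 3.36% of the traditional reads. These groups lay far apart, with a ratio of means of 6.99 (exact permutation test, adjusted p = 0.0159). miRNA hairpins took 1.37%, 1.05%, 1.30% and 1.32% of the PANDORA-seq reads, against 5.04%, 16.9%, 7.81%, 4.54% and 5.55% of the traditional reads. The groups did not overlap (exact permutation test, adjusted p = 0.0238), and traditional replicate 2 stood above the other traditional libraries.

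**Figure D1:**
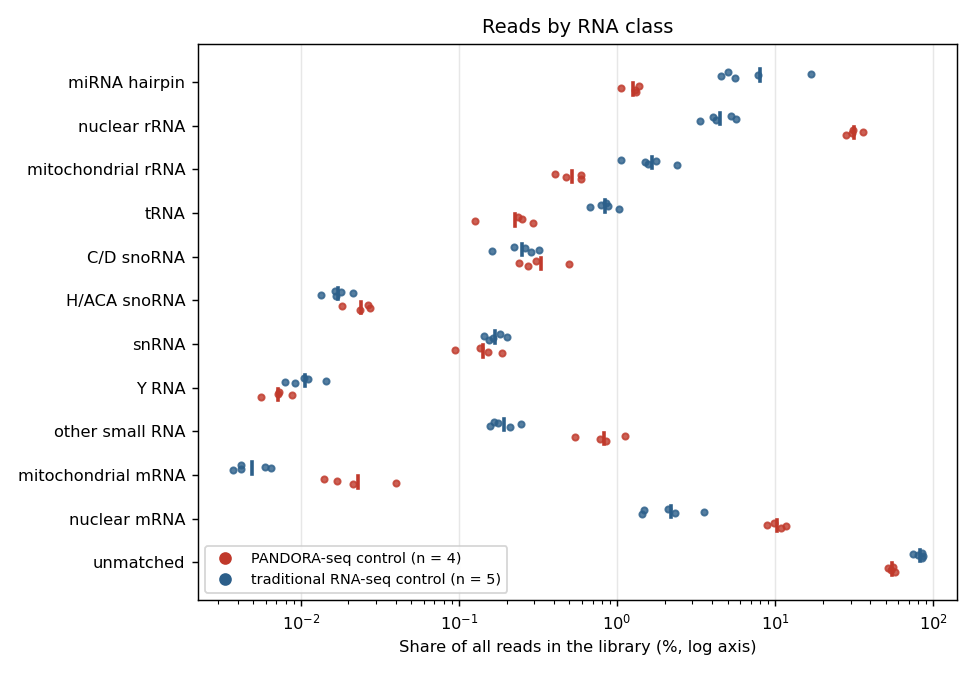
Share of all reads (percent, log axis) in each RNA class, with a point for each of the 4 PANDORA-seq and 5 traditional control libraries and a line at each mean. Nuclear rRNA lies between 27.9% and 36.2% in PANDORA-seq and between 3.36% and 5.62% in traditional RNA-seq, while miRNA hairpins lie lower in PANDORA-seq.

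Nuclear mRNA fragments took 10.3% ± 1.22 (SD, n = 4) of the PANDORA-seq reads and 2.19% ± 0.862 (SD, n = 5) of the traditional reads, without overlap (exact permutation test, adjusted p = 0.0159). Reads assigned to 2 transcripts, Lars2 and Tmem38b, made up most of the PANDORA-seq share, and whether these reads come from mRNA was not settled. Without them mRNA stood at 3.67% ± 0.431 (SD, n = 4) against 1.42% ± 0.4996 (SD, n = 5), still without overlap. Fragments of mitochondrial mRNA rose from 0.00489% ± 0.00124 (SD, n = 5) in traditional RNA-seq to 0.0230% ± 0.0116 (SD, n = 4) in PANDORA-seq (exact permutation test, adjusted p = 0.0159). The class of other small RNAs, led by 7SL, the RNA of the signal recognition particle, rose from 0.191% ± 0.0369 (SD, n = 5) to 0.825% ± 0.237 (SD, n = 4), with the same adjusted p of 0.0159 in the exact permutation test, a call lost per matched read (adjusted p = 0.0556).

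Mitochondrial rRNA and the tRNAs used here went the other way. tRNA reads took 0.236%, 0.249%, 0.126% and 0.294% of the PANDORA-seq reads and 0.856%, 0.788%, 0.873%, 0.670% and 1.03% of the traditional reads, without overlap (exact permutation test, adjusted p = 0.0159). Mitochondrial rRNA stood at 0.517% ± 0.0937 (SD, n = 4) against 1.66% ± 0.490 (SD, n = 5), also without overlap (exact permutation test, adjusted p = 0.0238). The snoRNA, snRNA and Y RNA classes differed less. snRNAs stood at 0.142% ± 0.0381 (SD, n = 4) against 0.169% ± 0.0228 (SD, n = 5), with an adjusted p of 0.238 in the exact permutation test. Their difference of -0.0267 percentage points was -0.0107 without PANDORA-seq replicate 2 and -0.0412 without replicate 4. C/D box snoRNAs, which guide ribose methylation, stood at 0.329% ± 0.115 (SD, n = 4) against 0.250% ± 0.0600 (SD, n = 5), with an adjusted p of 0.238 in the exact permutation test. This difference of 0.0789 percentage points was 0.0229 without PANDORA-seq replicate 3. H/ACA box snoRNAs, which guide pseudouridylation, were counted together with all genes named Scarna. This class stood at 0.0239% against 0.0172% (adjusted p = 0.0381) and Y RNAs, which bind the protein Ro, at 0.00719% against 0.0106% (adjusted p = 0.0381), both by the exact permutation test over 4 against 5 libraries. In each of these last classes the libraries of the methods overlapped. Per matched read both snoRNA classes were lower in PANDORA-seq, with adjusted p of 0.0349 for C/D and 0.0194 for H/ACA in the exact permutation test. The H/ACA call was lost without PANDORA-seq replicate 1, 3 or 4 or traditional replicate 1, 2, 4 or 5 (adjusted p from 0.0536 to 0.0804), and the Y RNA call without any PANDORA-seq replicate or traditional replicate 1, 2, 3 or 5 (adjusted p from 0.0536 to 0.0974). Both were also lost with sequences read at least 2 times (adjusted p = 0.0667 and 0.0635), and the Y RNA call with reads of 18 to 45 nt (adjusted p = 0.0667), in exact permutation tests. The miRNA hairpin call was lost without any one PANDORA-seq replicate, each time with an adjusted p of 0.0857 in the exact permutation test, while its difference stayed between -6.76 and -6.65 percentage points. Without traditional replicate 2 the difference was -4.48 percentage points in place of -6.72, and the call was kept (exact permutation test, adjusted p = 0.0429). Unmatched reads made up 54.8% ± 2.31 (SD, n = 4) of the PANDORA-seq reads and 82.1% ± 5.06 (SD, n = 5) of the traditional reads (exact permutation test, adjusted p = 0.0159).

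Read lengths shifted upwards with PANDORA-seq. Of the 31 lengths, 13 took a larger share (41.9%) and 9 a smaller share (29.0%) at an adjusted p below 0.05 in the exact permutation test. The lengths named here are peaks and shoulders of the profile and were picked after it was seen. Reads of 36 nt, the length of the main 5S fragment, took 14.8%, 11.4%, 8.54% and 11.99% of the PANDORA-seq reads, and 3.59%, 3.44%, 3.91%, 3.68% and 5.48% of the traditional reads (exact permutation test, adjusted p = 0.0145). Reads of 29 nt took 2.46%, 3.17%, 3.65% and 3.30% of the PANDORA-seq reads against 13.2%, 13.8%, 12.2%, 19.1% and 16.4% of the traditional reads, with the same adjusted p of 0.0145 in the exact permutation test. In both cases the groups were well separated, in opposite directions. Together, 28 and 29 nt reads made up 5.25% ± 0.657 (SD, n = 4) against 22.1% ± 3.99 (SD, n = 5), and reads of 37 to 45 nt 26.1% ± 2.96 (SD, n = 4) against 8.76% ± 2.13 (SD, n = 5). At 21 nt, the main miRNA length in the traditional libraries, the share was 1.5998% ± 0.451 (SD, n = 4) against 4.80% ± 1.96 (SD, n = 5), and at 24 nt it was 3.68% ± 0.722 (SD, n = 4) against 1.18% ± 0.205 (SD, n = 5). At 30 nt, the length of the main 18S fragment, the libraries overlapped, with 9.69% ± 4.19 (SD, n = 4) against 11.2% ± 1.31 (SD, n = 5) and an adjusted p of 0.501 in the exact permutation test. Reads of 34 nt stood at 5.49% against 8.65% (adjusted p = 0.0246) and reads of 42 nt at 2.72% against 2.13% (adjusted p = 0.273), again by the exact permutation test. The calls at 21 and 34 nt were lost without any one PANDORA-seq replicate (adjusted p from 0.0503 to 0.101 at 21 nt and from 0.0503 to 0.0554 at 34 nt), and 42 nt was called higher without traditional replicate 5 (adjusted p = 0.0403), all by the exact permutation test. Counted over distinct sequences instead of reads, 24 nt turned to lower and 34 nt to higher in PANDORA-seq.

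**Figure D2:**
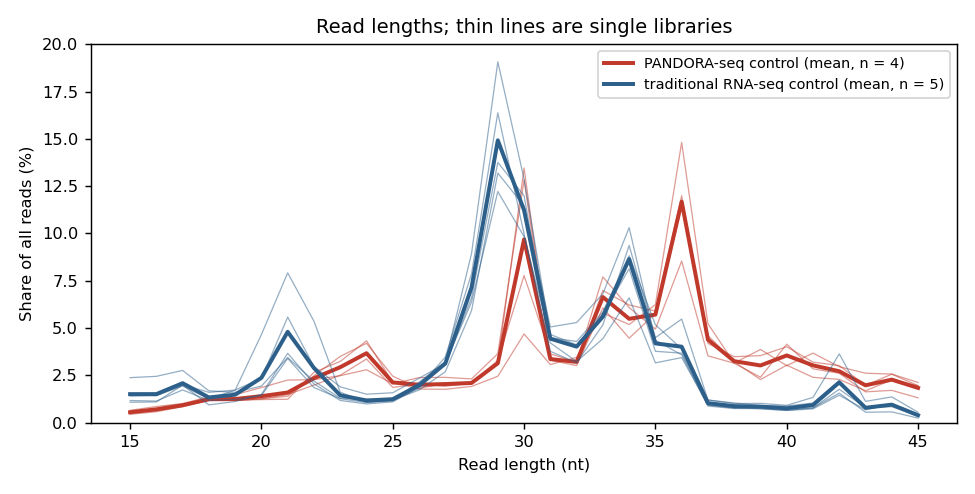
Share of all reads (percent) at each read length (nt, 15 to 45), with a thin line for each library and a thick line for the mean of each method. PANDORA-seq replicates 1 and 4 peak at 36 nt, replicates 2 and 3 at 30 nt and the traditional libraries at 29 nt, and the PANDORA-seq mean lies above the traditional mean from 37 to 45 nt.

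Within classes, the modal length moved as well, taken from the mean profile of the libraries of each method. Nuclear rRNA reads were most often 36 nt long in PANDORA-seq and 30 nt in traditional RNA-seq, and other small RNA reads 42 nt against 15 nt. The rRNA mode need not hold in PANDORA-seq replicates 2 and 3. There the 30 nt 18S read gave 92220 and 84357 RPM, above the 36 nt 5S read at 60098 and 23533 RPM. H/ACA snoRNA reads were most often 37 nt against 15 nt, whereas mitochondrial tRNA reads were most often 24 nt against 42 nt. Reads on miRNA hairpins peaked at 32 nt in PANDORA-seq and at 21 nt in traditional RNA-seq.

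Gene by gene, 11777 genes had at least 10 reads in at least 4 of the 9 libraries, and 7903 of them (67.1%) took a larger share in PANDORA-seq and 1016 (8.63%) a smaller share, at an adjusted p below 0.1 and a fold above 2 in edgeR's quasi-likelihood test. Since shares sum to the same total in every library, the counts follow the scaling. The median log2 difference over all genes was 1.58 with total reads as library size and 0.13 with TMM factors, which gave 1393 higher and 2357 lower genes. Scaled to reads other than rRNA, Lars2 and Tmem38b, 9374 genes were higher and 744 lower, and scaled to miRNA hairpin reads 10871 were higher and 333 lower. When only sequences seen at least 2 times in a library were kept, 8858 genes were tested, of which 1257 were higher and 1428 lower. The median was then 0.23 over all genes and 0.32 over mRNAs. Genes that met the count minimum through 1 method alone had to differ, namely 289 genes with at least 10 reads in PANDORA-seq libraries only, all called higher, and 316 in traditional libraries only, of which 315 were called lower. Log2 differences are therefore to be read against the median of their own setting, which is 1.58 with total reads as library size. Of the 11777 genes behind that median, 10853 are mRNAs. By class, the median was -3.83 for 499 miRNA hairpins, -3.28 for 20 mitochondrial tRNAs, -2.14 for 13 nuclear tRNAs, -1.55 for 58 snRNA families, 0.21 for 112 C/D snoRNAs, 0.27 for 68 H/ACA snoRNAs, 1.65 for 10853 mRNAs and 1.99 for the 13 mitochondrial mRNAs. Genes are called read by both methods if they had at least 10 reads in 1 or more libraries of each method. Such genes can still owe the count minimum largely to 1 method. Among them the median was -1.64 for 318 miRNA hairpins and -1.04 for 45 snRNA families. Over all tested genes, the class medians with TMM factors, in the order first given, were -5.40, -4.97, -3.70, -3.13, -1.42, -1.27, 0.21 and 0.40. Both snoRNA classes thus changed sign. With miRNA hairpin reads as library size the nuclear tRNAs and snRNAs changed sign, to 0.19 and 0.80.

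**Figure D3:**
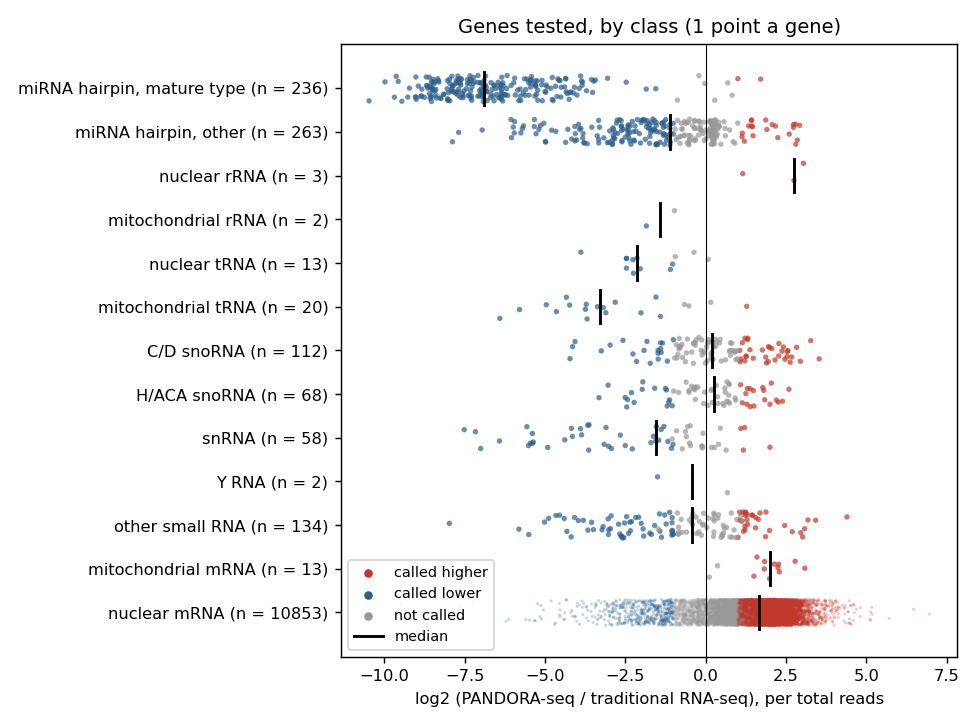
Log2 difference of each tested gene, PANDORA-seq over traditional control libraries with total reads as library size, by RNA class. Each point is a gene, coloured by its call, and the black bar is the median of the class, which lies at -6.89 for hairpins read mostly as mature miRNA and at 1.65 for nuclear mRNAs. Those hairpins were grouped by their traditional reads, and 127 of the 236 passed the count minimum through the traditional libraries alone.

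miRNAs, which pair with target mRNAs through their seeds, lost most of their share in PANDORA-seq. Reads that spanned a mature arm of the RefSeq table used here, starting within 2 nt and ending within 3 nt of its ends, summed to 216, 342, 489 and 333 RPM in PANDORA-seq and to 30434, 83603, 60433, 35650 and 42481 RPM in traditional RNA-seq, a ratio of means of 146. The table held an arm for 207 of the 236 hairpins read mostly at 20 to 24 nt, and among the 29 not included in these sums were Mir122, Mir143 and Mir30d. Those 29 hairpins summed to between 163 and 271 RPM in PANDORA-seq against between 4764 and 79040 RPM in traditional RNA-seq. Summed over the listed arms, every PANDORA-seq library lay far under every traditional library. A minimum of 20 RPM in the traditional libraries, set after the values were seen, was met by 75 of the listed arms. As it is set on the traditional side, this minimum favours arms that stand higher there, so their separation and ratios are a description. In all 75 the libraries of the methods did not overlap. For these the traditional level was between 36.5 and 1318 times the PANDORA-seq level, with a median of 216, or 132.4 without traditional replicate 2, and the extreme, miR-340-5p, rested on 4 PANDORA-seq reads and was 634 without traditional replicate 2. miR-148a-3p read 19.7, 39.8, 116 and 50.9 RPM in PANDORA-seq against 7693, 14157, 13752, 7794 and 9877 RPM in traditional RNA-seq, a ratio of 188, or 289 without PANDORA-seq replicate 3. The ratio was 157 for miR-10a-5p and 199 for miR-10b-5p, the neighbours of Hox genes with a common seed. It was 392.2 for miR-21a-5p and 543 for miR-30a-5p, but single libraries moved these values, which were 188 and 295 without traditional replicate 2 and 755 and 1385 without PANDORA-seq replicate 2, settings added after the data were seen. The ratio was 44.5 for let-7c-5p and 56.9 for let-7b-5p. let-7c-5p read 32.7, 27.2, 47.9 and 53.1 RPM in PANDORA-seq against 977, 2187, 2299, 1936 and 1553 RPM in traditional RNA-seq. let-7f-5p, which has the same seed, read between 7.78 and 31.1 RPM against between 1276 and 4532 RPM, a ratio of 154. The members of the let-7 family thus differed in their ratios, and these differences between miRNAs were not tested.

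Hairpins of the miRNA lists were counted apart from those that met the count minimum through the traditional libraries alone, whose lower calls were set by the filter. The hairpins kept needed 10 reads in only 1 library of each method, so the filter can still favour lower calls among them. In the let-7 family, regulators of developmental timing, all 11 hairpins had at least 10 reads in libraries of both methods and 11 fell, beside 8.63% of all genes, with a median log2 difference of -6.68. Both miR-10 genes (median -7.46), 6 of 7 miR-30 genes (median -7.96) and the 3 genes of miR-148 and miR-152 (median -8.04) were measured in the same way and fell, and 1 miR-30 gene was not tested. In the epithelial miR-200 family 4 of 5 hairpins were read by both methods and fell, among them Mir429, at between 0.0786 and 0.195 RPM in PANDORA-seq. In the male germline and ciliated cell family of miR-34 and miR-449 this held for 2 of 6, in the sensory cluster of miR-183, miR-96 and miR-182 for 2 of 3, and among miR-21, miR-191 and miR-425 for 2 of 3. Of the 9 genes of miR-17-92 and miR-106b-25, a cell growth family, 6 passed through the traditional libraries alone, and the 2 read by both methods fell. The hairpins read by both methods were also called lower with TMM factors and with miRNA hairpin reads as library size, and DESeq2 with its own size factors called them too, except for 1 of the 11 let-7 hairpins.

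The hairpins fell into 2 groups by the length of their reads. Over all hairpins, 9.53%, 14.4%, 17.6% and 12.1% of the PANDORA-seq reads were 20 to 24 nt long, against 85.2%, 92.8%, 89.6%, 88.9% and 88.0% of the traditional reads, so that the groups lay at opposite ends of the scale. Of 236 hairpins with at least 50% of their traditional reads at 20 to 24 nt, 109 had at least 10 reads in libraries of both methods, and of these 101 were lower and 2 higher in PANDORA-seq, beside 8.63% and 67.1% of all genes, with a median log2 difference of -6.92. The remaining 127 passed through the traditional libraries alone. All 236 together summed to 366, 546, 768 and 482 RPM in PANDORA-seq and to 44980, 166219, 73621, 42221 and 51106 RPM in traditional RNA-seq. Of the 263 other hairpins, 209 were read by both methods, of which 84 were lower and 19 higher, beside the same shares of all genes, with a median of -0.50 beside 1.58 over all genes, and the 263 together had a summed share of 12005 ± 1445 RPM (SD, n = 4) against 4015 ± 964 RPM (SD, n = 5). Most hairpin reads of PANDORA-seq thus lay on hairpins that were not read as mature miRNA, and as the group was defined on traditional reads its median is a description.

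By the rule for named genes, Mir122, Mir148a and Mir10a were the lower hairpins with the largest read share in the first group. Mir122 read 17.3, 129, 14.1 and 9.52 RPM in PANDORA-seq against 10716, 70134, 1918, 806 and 2277 RPM in traditional RNA-seq (log2 difference -8.66 ± 1.61 SE, adjusted p = 0.000514). Replicate 2 was the highest library of each method, and the log2 difference was -6.53 without that of traditional RNA-seq and -10.3 without that of PANDORA-seq. The hairpins Mir148a and Mir10a gave log2 differences of -7.55 ± 0.671 SE and -7.29 ± 0.579 SE, the first -8.17 without PANDORA-seq replicate 3. The 2 that were higher were low in reads: Gm26377 at 2.31 against 0.701 RPM and Mir703 at 1.03 against 0.512 RPM, and the call of Mir703 (adjusted p = 0.0677) was lost without PANDORA-seq replicate 2, 3 or 4 or traditional replicate 1, 2 or 5, and its direction turned with TMM factors. In the second group Mir6240 led, at 5206, 4942, 6850 and 7178 RPM in PANDORA-seq against 1416, 420, 874, 691 and 929 RPM in traditional RNA-seq (log2 difference 2.80 ± 0.414 SE, adjusted p = 0.000139). Most of its reads held 1 mismatch to the hairpin, and with exact matches alone its difference turned to -1.12. Gm47301 and Gm47285, which shared nearly all their reads, rose from 346 ± 151 and 337 ± 149 RPM (SD, n = 5) to 1264 ± 334 and 1261 ± 333 RPM (SD, n = 4). Gm27527 fell from 637 ± 233 RPM (SD, n = 5) to 49.5 ± 29.9 RPM (SD, n = 4), Mir3963 from 116 ± 125 to 21.9 ± 3.99 RPM and Mir1957a from 97.9 ± 35.7 to 3.87 ± 0.671 RPM. Mir3963 had a log2 difference of -2.41, or -1.49 without traditional replicate 1, had no read of 20 to 24 nt in either method and turned to higher when reads under 18 nt were left out.

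Ribosomal RNA fragments are the largest matched class of the PANDORA-seq libraries. The 18S rRNA, of the small ribosomal subunit, read 192651, 275327, 260216 and 213166 RPM in PANDORA-seq against 41490, 31280, 45458, 32845 and 24252 RPM in traditional RNA-seq (log2 difference 2.75 ± 0.406 SE, adjusted p = 0.000139). The 5S rRNA, of the large subunit, read 116342, 84956, 46014 and 65496 RPM against 10666, 8849, 10170, 8807 and 9022 RPM (log2 difference 3.04 ± 0.411 SE, adjusted p = 7.56e-05). No library of one method reached the other for either RNA. The 5.8S rRNA, also of the large subunit, rose from 441 ± 124 RPM (SD, n = 5) to 980 ± 287 RPM (SD, n = 4), with a log2 difference of 1.15 ± 0.364 SE that turned to -0.395 with TMM factors, under which neither 18S nor 5S passed the threshold. The mitochondrial 16S rRNA fell from 14161 ± 4269 RPM (SD, n = 5) to 3935 ± 723 RPM (SD, n = 4) (log2 difference -1.85 ± 0.397 SE, adjusted p = 0.00121). The mitochondrial 12S rRNA stood at 842, 1416, 1338 and 1364 RPM against 1479, 2677, 2335, 2386 and 3277 RPM, a log2 difference of -0.97 ± 0.371 SE that missed the fold threshold and passed it without PANDORA-seq replicate 2, 3 or 4 or traditional replicate 1. With miRNA hairpin reads as library size both mitochondrial rRNAs turned to higher.

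Along the rRNAs, read starts were counted in bins of 10 nt. Of 401 bins tested, 174 (43.4%) were higher and 96 (23.9%) lower in PANDORA-seq. With rRNA reads as library size, which compares positions within rRNA, 34 were higher and 254 lower. In 18S rRNA 120 of the tested bins were higher, 21 lower and 41 not called, in 5S 6 of 11 higher and 1 lower, and in 5.8S 1 of 7 higher and 3 lower. In 12S 24 of 78 bins were higher and 26 lower, and in 16S 23 of 123 higher and 45 lower. Positions of the same RNA therefore moved in both directions in each of the 5 rRNAs.

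**Figure D4:**
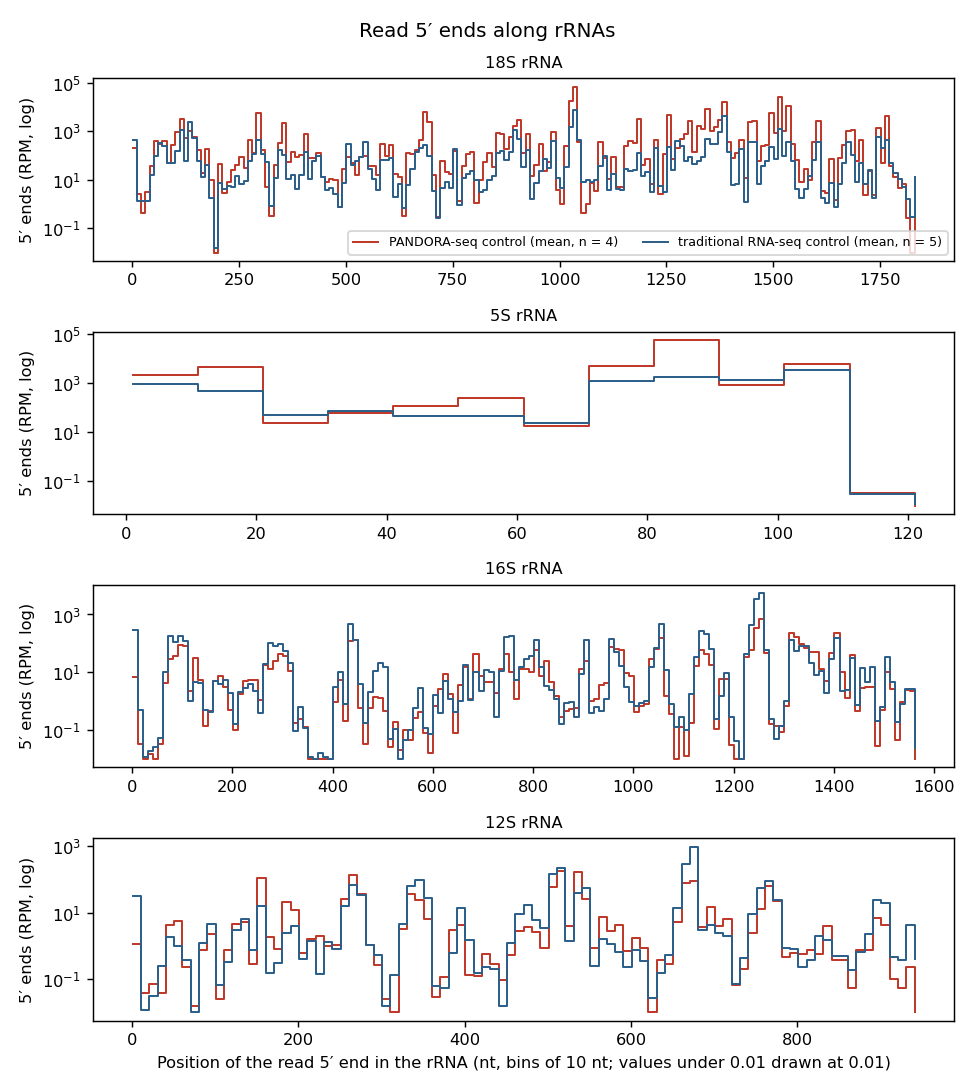
Reads starting in each 10 nt bin (RPM, log axis) against position in the rRNA (nt) for 18S, 5S, 16S and 12S, as the mean of the 4 PANDORA-seq and of the 5 traditional control libraries. In 18S and 5S rRNA the PANDORA-seq line mostly lies above the traditional line, and in 16S rRNA the bins around position 1250 lie higher in traditional RNA-seq.

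In 18S rRNA the bin from 1031 to 1040 held 20217, 107047, 97049 and 48761 RPM in PANDORA-seq and 6169, 7374, 9677, 8596 and 4450 RPM in traditional RNA-seq (log2 difference 3.23 ± 0.451 SE, adjusted p = 2.83e-07). It held the 30 nt fragment printed above, which alone gave 56988 ± 37391 RPM (SD, n = 4) against 2937 ± 1723 RPM (SD, n = 5). PANDORA-seq varied widely between libraries there, but no library overlapped. The bin from 1511 to 1520 rose from 1287 ± 625 to 24713 ± 7500 RPM (log2 difference 4.26 ± 0.437 SE), the bin from 1021 to 1030 from 1548 ± 719 to 17669 ± 7290 RPM (3.51 ± 0.431 SE) and the bin from 1381 to 1390 from 4317 ± 1453 to 16320 ± 7214 RPM (1.92 ± 0.398 SE). Against this, the bin from 131 to 140 fell from 2412 ± 358 RPM (SD, n = 5) to 1056 ± 480 RPM (SD, n = 4) (log2 difference -1.19 ± 0.381 SE, adjusted p = 0.00695). The fragment from 136 to 163 printed above, which starts with C, read 3.15, 5.29, 9.51 and 7.08 RPM in PANDORA-seq and 277, 294, 310, 246 and 456 RPM in traditional RNA-seq. A further 18S fragment went in the other direction and is printed for contrast, with its first base in capitals.
18S rRNA 1540 to 1574: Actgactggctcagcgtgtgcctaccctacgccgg
It lies at chr17:39847892-39847926 on the forward strand of GRCm38 and gave 8025, 14940, 7381 and 6170 RPM in PANDORA-seq against 308, 80.1, 338, 169 and 177 RPM in traditional RNA-seq. The printed fragments were chosen after their values were seen.

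In 5S rRNA, reads concentrated at the 3′ end. The bin from 81 to 90 held 89936, 70456, 28435 and 45388 RPM in PANDORA-seq against 1662, 1505, 1857, 1815 and 2132 RPM in traditional RNA-seq (log2 difference 5.03 ± 0.440 SE, adjusted p = 1.1e-10). Its 36 nt fragment, which runs to position 119, gave 49086 ± 22796 RPM (SD, n = 4) against 705 ± 178 RPM (SD, n = 5). The bin from 71 to 80 rose from 1286 ± 315 to 5164 ± 2102 RPM. The bins from 91 to 100 and from 101 to 110, at 855 against 1350 RPM and 6221 against 3431 RPM, did not pass both thresholds. Fragments sharing the same 3′ end differed by their start, since the 15 nt read from 105 to 119 gave 28.2, 12.6, 26.1 and 23.6 RPM in PANDORA-seq against 408, 560, 356, 386 and 198 RPM in traditional RNA-seq. In 5.8S rRNA the bin from 71 to 80 rose from 298 ± 106.1 RPM (SD, n = 5) to 885 ± 283 RPM (SD, n = 4), the bin from 61 to 70 fell from 78.6 ± 24.3 to 30.03 ± 3.44 RPM, and the bin from 101 to 110 stood at 42.3 against 23.1 RPM without a call.

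In each mitochondrial rRNA, fragments went opposite ways, and the fragments with the largest shares in either method are shown.
16S rRNA 1254 to 1287: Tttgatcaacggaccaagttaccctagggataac
16S rRNA 1319 to 1352: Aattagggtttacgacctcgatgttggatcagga
12S rRNA 159 to 186: Acgggactcagcagtgataaatattaag
12S rRNA 672 to 693: Aaaacgttaggtcaaggtgtag
They lie at chrM:2347-2380, chrM:2412-2445, chrM:228-255 and chrM:741-762 of GRCm38, all on the forward strand. The 16S fragment from 1254 read 22.96, 24.2, 13.7 and 22.8 RPM in PANDORA-seq and 239, 360, 330, 373 and 591 RPM in traditional RNA-seq. The 16S fragment from 1319, of the same length, read 34.96, 114, 48.7 and 54.7 RPM against 5.05, 8.71, 10.5, 9.49 and 14.5 RPM. Both separated the methods, in opposite directions. The 12S fragment from 159 read 66.4 ± 31.3 RPM (SD, n = 4) against 1.56 ± 0.780 RPM (SD, n = 5), and that from 672 read 0.323 ± 0.134 RPM against 66.1 ± 22.2 RPM. Bins behaved alike. The 16S bins from 1241 to 1250 and from 1251 to 1260 fell by 3.36 and 2.90 on the log2 scale, and the bin from 1051 to 1060 fell by 1.71, while that from 1401 to 1410 stood at 237 against 153 RPM without a call. In 12S the bins from 671 to 680 and 661 to 670 fell by 3.42 and 1.90 on the log2 scale, the bin from 531 to 540 rose from 40.3 ± 9.96 to 162 ± 18.4 RPM, and the bins from 261 to 270 and 511 to 520 were not called.

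The transfer RNAs used here lost share of all reads at almost all of their ends. The study scaled its values to total miRNA reads instead. Scaled to miRNA hairpin reads, single tRNAs moved in both directions, as given below. The hairpin total need not equal the study's miRNA total. In PANDORA-seq, hairpins not read as mature miRNA held 12005 RPM, against 540 RPM on those read mostly at 20 to 24 nt. Traditional RNA-seq stood 6.34 times higher in all hairpin reads and 146 times higher in reads of the listed mature arms. Scaling to mature miRNA reads was not tested. tsRNAs were divided by origin into 5′, 3′, 3′ with the added CCA tail, and internal reads. Of the 8 origins, 7 (87.5%) were lower in PANDORA-seq and 0 (0.0%) higher in the exact permutation test. The 13 of 408 nuclear tRNA loci whose sequences were at hand were used, together with the 22 mitochondrial tRNAs. Nuclear 5′ tsRNAs read 1026, 681, 519 and 633 RPM in PANDORA-seq against 5034, 3878, 3889, 3278 and 3753 RPM in traditional RNA-seq (exact permutation test, adjusted p = 0.0212). Nuclear internal reads stood at 129 ± 24.3 RPM (SD, n = 4) against 637 ± 194 RPM (SD, n = 5), with the same adjusted p of 0.0212 in the exact permutation test. Nuclear 3′ tsRNAs stood at 268, 223, 213 and 249 RPM against 620, 505, 542, 322 and 291 RPM (exact permutation test, adjusted p = 0.0423). This difference of -218 RPM moved to -19.95 RPM with reads of 18 to 45 nt (adjusted p = 0.833, exact permutation test) and to -62.08 RPM with exact matches (adjusted p = 0.0952), and its call was also lost with sequences read at least 2 times (adjusted p = 0.0529). 3′ tsRNAs with CCA were scarce, at 0.0904 against 1.03 RPM for nuclear tRNAs and 2.52 against 14.3 RPM for mitochondrial tRNAs. Mitochondrial 5′ tsRNAs read 14.7, 17.5, 4.63 and 33.1 RPM against 196, 620, 462, 394 and 515 RPM (exact permutation test, adjusted p = 0.0254). Mitochondrial internal reads stood at 930 against 2479 RPM (adjusted p = 0.0454) and mitochondrial 3′ tsRNAs at 229 against 450 RPM (adjusted p = 0.0635), each with overlapping libraries and by the exact permutation test. Without PANDORA-seq replicate 3, 3 origins passed, namely the nuclear 5′, nuclear internal and mitochondrial 5′ reads (exact permutation test, adjusted p = 0.0476 each). The call of nuclear 3′ tsRNAs with CCA was also lost without PANDORA-seq replicate 4, that of mitochondrial internal reads without any one library other than traditional replicate 1 (its difference of -1549 RPM was -998 RPM without traditional replicate 5) and in the 3 settings just named for nuclear 3′ tsRNAs, and mitochondrial 3′ tsRNAs passed without PANDORA-seq replicate 4. As a share of nuclear tRNA reads, 3′ tsRNAs made up 22.5% ± 3.01 (SD, n = 4) by PANDORA-seq against 8.88% ± 1.66 (SD, n = 5) by the traditional method, and 5′ tsRNAs 65.4% ± 4.52 against 78.7% ± 3.45.

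Among single tRNAs, 10 of 13 nuclear and 16 of 20 tested mitochondrial tRNAs were lower and 1 mitochondrial tRNA higher, beside 8.63% lower and 67.1% higher of all genes. With TMM factors 13 nuclear and 19 mitochondrial tRNAs were lower and 0 higher. With miRNA hairpin reads as library size 5 nuclear tRNAs were higher and 1 lower, and 4 mitochondrial tRNAs higher and 8 lower. Of the mitochondrial tRNAs 1 had passed the count minimum through the traditional libraries alone. The fragments of the named tRNAs are shown with the first base in capitals, to set both ends of the same tRNA beside each other.
n-TSgct5 1 to 23: Gacgaggtggccgagtggttaag
n-TSgct5 59 to 84: Tgggttcgaatcccatcctcgtcgcc
n-TAagc16 1 to 23: Ggggatgtagctcagtggtagag
n-TVcac9 1 to 31: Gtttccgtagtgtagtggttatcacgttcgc
mt-Th 7 to 43: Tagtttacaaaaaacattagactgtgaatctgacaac
mt-Th 31 to 69: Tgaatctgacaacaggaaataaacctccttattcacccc
mt-Tq 1 to 42: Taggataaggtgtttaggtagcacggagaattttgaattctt
mt-Te 35 to 58: Tgtcattggtcgcagttgaatgct
On GRCm38 the 5′ reads of n-TSgct5, n-TAagc16 and n-TVcac9 were matched to chr13:22050745-22050767 on the reverse strand, chr13:21222586-21222608 on the forward strand and chr13:23446184-23446214 on the reverse strand. The printed n-TAagc16 read holds 1 mismatch to this locus. It gave 220 RPM in traditional RNA-seq, beside 390 RPM for all 5′ reads assigned there. As 13 of 408 nuclear loci were used, whether it comes from another tRNA was not tested. The mt-Th read from 7 lies at chrM:11552-11588 on the forward strand, and the mt-Tq and mt-Te reads at chrM:3801-3842 and chrM:14082-14105 on the reverse strand. n-TSgct5, a serine tRNA, read 144, 97.4, 116 and 130 RPM in PANDORA-seq against 279, 540, 640, 486 and 553 RPM in traditional RNA-seq (log2 difference -2.04 ± 0.366 SE, adjusted p = 0.00042). Its ends differed. The 5′ reads fell from between 201 and 529 RPM to between 10.6 and 18.6 RPM, whereas the 3′ reads overlapped, at between 64.9 and 113 RPM in PANDORA-seq against between 10.7 and 169 RPM in traditional RNA-seq. The printed 3′ read, which runs into the CCA tail, gave 29.3 ± 9.36 RPM (SD, n = 4) against 5.16 ± 6.64 RPM (SD, n = 5). n-TVcac9, a valine tRNA, fell from 2848 ± 689 RPM (SD, n = 5) to 600 ± 173 RPM (SD, n = 4), with -2.25 ± 0.385 SE on the log2 scale (adjusted p = 0.000322). Reads assigned to n-TAagc16, an alanine tRNA, fell from 417 ± 31.03 to 28.3 ± 18.2 RPM, with -3.88 ± 0.512 SE (adjusted p = 6.39e-05). With miRNA hairpin reads as library size n-TSgct5 and n-TVcac9 turned to higher. The serine tRNAs n-TSaga9, n-TStga1 and n-TStga2 shared nearly all their 5′ reads and cannot be told apart.

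The mitochondrial histidine tRNA, mt-Th, read 802, 1348, 149 and 1762 RPM in PANDORA-seq against 1605, 1954, 2807, 1988 and 5119 RPM in traditional RNA-seq (log2 difference -1.41 ± 0.593 SE, adjusted p = 0.0437). The libraries overlapped, and without traditional replicate 5 the call was lost. Its 2 printed reads went opposite ways. The read from 7 to 43 gave 25.6, 130, 1.46 and 193 RPM against 0.323, 0.365, 0.302, 1.70 and 8.23 RPM, overlapping only through PANDORA-seq replicate 3. The read from 31 to 69 gave 11.4, 13.5, 0.162 and 10.7 RPM against 63.8, 151.6, 141, 97.9 and 212 RPM. mt-Tq, for glutamine, fell from 240 ± 98.6 RPM (SD, n = 5) to 9.57 ± 2.84 RPM (SD, n = 4), with 228 RPM in 5′ reads in traditional RNA-seq and 2.73 RPM in PANDORA-seq, and mt-Ts2, for serine, fell from 96.5 ± 38.5 to 11.2 ± 11.5 RPM, a log2 difference of -3.11, or -4.04 without PANDORA-seq replicate 4. mt-Te, for glutamate, was the tRNA called higher, at 50.2, 55.9, 173 and 47.6 RPM against 27.9, 45.2, 48.04, 29.6 and 18.1 RPM (log2 difference 1.28 ± 0.449 SE, adjusted p = 0.0196). The groups overlapped, its call was lost without PANDORA-seq replicate 3, where the difference was 0.60, and its direction turned with TMM factors.

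At a base known to be methylated in many tRNAs, the adenine of the T loop, mismatches were compared as a description after all positions had been viewed. In n-TGccc7, a glycine tRNA, 8.26%, 4.49%, 1.26% and 0.852% of the PANDORA-seq bases at position 56 differed from the reference, against 34.1%, 59.5%, 46.02%, 59.2% and 49.7% in traditional RNA-seq, with between 555 and 5587 reads over the base. In n-TVcac9 the share at position 58 was between 0.240% and 1.01% against between 1.89% and 6.48%, and in n-TSgct5 at position 67 between 0.256% and 0.608% against between 1.20% and 2.49%. Of the 13 nuclear tRNAs, n-TGccc7 was the one with a mismatch share above 10% in any library.

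C/D box snoRNAs moved in both directions, with 34 of 112 called higher and 20 lower, beside 67.1% and 8.63% of all genes. With TMM factors 6 were higher and 67 lower, and with miRNA hairpin reads as library size 100 higher and 2 lower. U3, which acts in the early processing of rRNA, read 411, 361, 609 and 378 RPM in PANDORA-seq against 129, 134, 257, 150 and 119 RPM in traditional RNA-seq (log2 difference 1.48 ± 0.358 SE, adjusted p = 0.00244). The methods did not overlap, though with TMM factors the difference was -0.045. Snord14c rose from 49.9 ± 13.7 RPM (SD, n = 5) to 267 ± 99.2 RPM (SD, n = 4) and Gm23344 from 32.6 ± 4.13 to 208 ± 95.6 RPM. Gm23301 fell from 620 ± 245 to 271 ± 109 RPM, without a call when traditional replicate 5 was left out, Snord95 from 117 ± 44.1 to 44.8 ± 16.7 RPM, and Gm24452 from 71.5 ± 50.1 to 4.05 ± 1.51 RPM, a log2 difference of -4.14 ± 0.562 SE (adjusted p = 7.7e-05). With miRNA hairpin reads as library size Gm23301 and Snord95 turned to higher. Fragments of them that differed between methods are shown, with the first base in capitals.
U3 48 to 90: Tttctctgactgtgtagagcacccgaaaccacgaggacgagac
Snord14c 48 to 86: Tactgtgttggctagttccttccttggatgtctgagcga
Snord95 33 to 65: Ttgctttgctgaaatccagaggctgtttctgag
Gm24452 44 to 69: Tgcaatgatgtcatcttactactgaa
The Snord14c read lies at chr9:40803630-40803668 and the Gm24452 read at chr19:8724574-8724599 of GRCm38, both on the forward strand. The U3 fragment gave 75.3 ± 17.6 RPM (SD, n = 4) against 3.27 ± 1.55 RPM (SD, n = 5) and the Snord14c fragment 37.7 ± 14.4 against 1.78 ± 0.349 RPM. The Snord95 fragment gave 3.73 ± 1.25 against 24.7 ± 10.3 RPM and the Gm24452 fragment 0.0777 ± 0.0735 against 14.6 ± 10.2 RPM.

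H/ACA box snoRNAs gave 18 of 68 higher and 16 lower, again beside 67.1% and 8.63% of all genes, but 0 higher and 37 lower with TMM factors and 58 higher and 0 lower with miRNA hairpin reads as library size. Snora57 read 53.8, 18.9, 8.19 and 39.3 RPM in PANDORA-seq against 6.43, 2.28, 3.95, 4.35 and 7.98 RPM in traditional RNA-seq (log2 difference 2.59 ± 0.510 SE, adjusted p = 0.000707), and no libraries overlapped although PANDORA-seq replicate 3 came close. Snora24 rose from 4.74 ± 1.17 to 24.9 ± 10.98 RPM and Gm22270 from 5.30 ± 3.06 to 18.2 ± 12.98 RPM, a log2 difference of 1.77, or 1.14 without PANDORA-seq replicate 3. Snora62 fell from 19.2 ± 7.79 to 4.95 ± 1.67 RPM, Scarna17, a guide RNA of Cajal bodies, from 12.4 ± 9.01 to 2.49 ± 0.761 RPM, and Snora44 from 8.61 ± 3.74 to 1.58 ± 0.392 RPM, and these 3 turned to higher with miRNA hairpin reads as library size. Genes named Scarna were placed in this class by name, without a check of their box, so the class may also hold C/D box guides.

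The 58 snRNA families tested include U7, which is not spliceosomal, and unnamed genes. Of these families, 13 passed the count minimum through the traditional libraries alone, and of the other 45, 23 were called lower and 4 higher, beside 8.63% and 67.1% of all genes. Of all 58, 52 were lower and 0 higher with TMM factors, and 17 lower and 25 higher with miRNA hairpin reads as library size. U6, the catalytic snRNA of the spliceosome, read 3.23, 4.85, 3.79 and 2.76 RPM in PANDORA-seq against 67.6, 46.8, 30.6, 37.7 and 49.7 RPM in traditional RNA-seq (log2 difference -3.67 ± 0.382 SE, adjusted p = 8.22e-06). U7, which acts on the 3′ ends of histone mRNAs, was low in both, at 0.0758 ± 0.0552 RPM in PANDORA-seq against 0.957 ± 0.113 RPM in traditional RNA-seq, and passed through the traditional libraries alone, so that its lower call was set by the filter. U5, which aligns exons, fell from 87.0 ± 17.5 to 41.5 ± 6.41 RPM, a call lost without PANDORA-seq replicate 1 or traditional replicate 1, and Gm23744 from 71.8 ± 33.6 to 24.4 ± 8.62 RPM, and both turned to higher with miRNA hairpin reads as library size. U1, which binds 5′ splice sites, went the other way, at 403, 221, 295 and 412 RPM against 175, 143, 212, 134 and 115 RPM (log2 difference 1.09 ± 0.343 SE, adjusted p = 0.0109), a call lost without PANDORA-seq replicate 1 or 4. Gm22220 rose from 42.2 ± 19.5 to 169 ± 49.5 RPM, and U11, of the minor spliceosome, from 2.17 ± 1.12 to 4.92 ± 1.36 RPM, a call lost without traditional replicate 5. With TMM factors U1 and U11 turned to lower. U2, which binds the branch point, stood at 601 ± 234 against 646 ± 114 RPM and U12, its minor counterpart, at 87.8 ± 34.3 against 136 ± 60.9 RPM, with no call for either.

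Among other small RNAs, 100 of 134 had at least 10 reads in libraries of both methods, and of these 30 were higher and 24 lower, beside 67.1% and 8.63% of all genes. Of all 134, 7 were higher and 92 lower with TMM factors, and 84 higher and 14 lower with miRNA hairpin reads as library size. 7SL read 4562, 2019, 2833 and 3338 RPM in PANDORA-seq against 273, 364, 502, 372 and 536 RPM in traditional RNA-seq (log2 difference 2.96 ± 0.390 SE, adjusted p = 6.37e-05), with the groups far apart. Rn7s6, a copy that shared nearly all of its reads with 7SL, stood at 3152 against 294 RPM. The main 7SL fragment is printed with its first base in capitals.
7SL 77 to 118: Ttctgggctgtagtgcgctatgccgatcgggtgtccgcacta
It gave 1822, 871, 1827 and 1631 RPM in PANDORA-seq against 19.4, 3.05, 20.96, 20.3 and 26.3 RPM in traditional RNA-seq, and the methods did not overlap. Rpph1, the RNA of RNase P, rose from 4.39 ± 1.81 RPM (SD, n = 5) to 24.2 ± 8.96 RPM (SD, n = 4). Gm26461 rose from 194 ± 58.03 to 457 ± 112 RPM, and turned to lower with TMM factors. Rn7sk, which holds the elongation factor P-TEFb inactive, stood at 158 ± 14.1 against 82.4 ± 46.3 RPM and Rmrp, of the RNase MRP complex, at 1.26 ± 0.379 against 1.54 ± 0.816 RPM, neither with a call, though Rn7sk was called higher without traditional replicate 3, at 1.27 on the log2 scale. Of the Y RNAs, Rny1 fell from 78.3 ± 15.5 to 27.7 ± 4.49 RPM (log2 difference -1.50 ± 0.320 SE, adjusted p = 0.00116), and Rny3 stood at 44.2 ± 10.9 against 27.7 ± 9.09 RPM without passing the fold threshold. Gm24494 and Gm26224 were lower, with log2 differences of -1.01 ± 0.438 SE and -2.18 ± 0.555 SE. That of Gm26224 was -1.33 without traditional replicate 2. The call of Gm24494 was lost without PANDORA-seq replicate 1 or 2 or traditional replicate 3 or 5. Rny1, Gm24494 and Gm26224 turned to higher with miRNA hairpin reads as library size.

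mRNA fragments made up most of the genes tested, with 7778 of 10853 called higher and 497 lower, beside 67.1% and 8.63% of all genes, of which they are the larger part. With TMM factors 1373 were higher and 1606 lower, and with sequences seen at least 2 times in a library 1163 of 8057 higher and 941 lower. Lars2, a mitochondrial leucyl-tRNA synthetase, read 45959, 42506, 67883 and 62076 RPM in PANDORA-seq against 7391, 2872, 11489, 7325 and 2584 RPM in traditional RNA-seq (log2 difference 3.11 ± 0.504 SE, adjusted p = 0.000234). Of these reads 99.9981% lay within 300 nt of position 3236 of a transcript of 3894 nt, which is a small part of the mRNA. In the scaling without rRNA, Lars2 was left out together with rRNA and Tmem38b. Not every rRNA was among the sequences used here, so whether the Lars2 reads are fragments of rRNA was not tested. Tmem38b, an intracellular channel, rose from 1365 ± 168 to 11501 ± 5101 RPM, and its main read was the 36 nt 5S read printed above with 1 base added, so that its reads cannot be told apart from 5S fragments. Akr1b7, an aldo-keto reductase first found in the vas deferens, read 1092, 909, 874 and 937 RPM against 143, 54.2, 320, 151.99 and 73.2 RPM (log2 difference 2.68 ± 0.480 SE, adjusted p = 0.000412), with the methods well apart. Smcp, a protein of the sperm mitochondrial sheath, fell from 161 ± 46.9 RPM (SD, n = 5) to 57.4 ± 12.8 RPM (SD, n = 4), and D10Wsu102e from 145 ± 37.996 to 50.6 ± 27.2 RPM, and both turned to higher with miRNA hairpin reads as library size. Tbl2 read 3.22, 2.65, 4.05 and 3.31 RPM against 59.4, 90.04, 104, 90.4 and 88.6 RPM (log2 difference -4.71 ± 0.376 SE, adjusted p = 6.16e-07).

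The reads of the called mRNAs are described for those with at least 10 reads in libraries of both methods, since 97 of the lower mRNAs passed through the traditional libraries alone. In the 400 other lower mRNAs, 32.2% ± 5.65 (SD, n = 5) of the traditional reads were 25 to 32 nt long and began with T, against 12.5% ± 2.01 (SD, n = 4) of the PANDORA-seq reads. In the 7489 higher mRNAs other than Lars2 and Tmem38b the same shares were 11.3% ± 1.94 (SD, n = 5) and 14.6% ± 1.79 (SD, n = 4), and 54.3% ± 4.42 of the PANDORA-seq reads against 30.8% ± 0.885 of the traditional reads were 33 to 45 nt long. Of the traditional reads of Tbl2, 96.2% began with T, and of those of D10Wsu102e 91.3%, against 27.2% for Smcp. Sense reads of mRNA other than Lars2 and Tmem38b outnumbered antisense reads by 53.4 ± 7.41 to 1 (SD, n = 4) with PANDORA-seq against 17.5 ± 4.59 to 1 (SD, n = 5) with the traditional method. Antisense reads themselves took 0.0707% ± 0.0198 against 0.0800% ± 0.00678 of all reads, with overlap.

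Of the 20 spermatid mRNAs, 18 were tested, of which 4 were higher and 1 lower in PANDORA-seq, beside 67.1% and 8.63% of all genes, and their median log2 difference of 0.56 lay under the overall 1.58. Odf1, of the sperm tail outer dense fibres, read 82.7, 74.0, 87.6 and 107 RPM in PANDORA-seq against 21.7, 27.6, 33.8, 27.95 and 37.6 RPM in traditional RNA-seq. Akap4 of the fibrous sheath (log2 difference 1.46), the glycolytic Gapdhs (1.46) and the kinase Tssk6 (1.01) also rose, while Smcp fell. The protamine Prm2 stood at 32.6 ± 7.44 against 22.5 ± 7.15 RPM without a call. With TMM factors 0 of the list were higher and 9 lower. Of 84 ribosomal protein mRNAs 79 were tested, of which 73 were higher and 0 lower, beside the same shares of all genes. Their median was 1.90, beside 1.58 over all genes. Rpl41 read 49.2, 46.4, 80.1 and 61.7 RPM against 11.3, 8.37, 31.6, 18.4 and 9.55 RPM (log2 difference 1.90 ± 0.418 SE), without overlap. Rps2 rose by 2.22 ± 0.471 SE and Rplp0 by 2.12 ± 0.477 SE on the log2 scale, and Rps27a stood at 10.8 against 13.2 RPM. With TMM factors 11 ribosomal protein mRNAs were higher and 3 lower.

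All 13 mitochondrial mRNAs, which code for subunits of the respiratory chain and ATP synthase, were tested, and 11 were higher and 0 lower, beside 67.1% and 8.63% of all genes, with a median log2 difference of 1.99 beside 1.58 over all genes. mt-Co1 read 37.04, 48.8, 97.8 and 53.1 RPM in PANDORA-seq against 10.6, 17.5, 22.3, 14.2 and 9.92 RPM in traditional RNA-seq (log2 difference 1.99 ± 0.380 SE, adjusted p = 0.000595). mt-Co2 and mt-Co3, of the same enzyme, rose by 2.27 ± 0.386 SE and 2.25 ± 0.383 SE on the log2 scale, mt-Cytb by 3.08 ± 0.434 SE, and mt-Atp6 by 2.78 ± 0.429 SE. Among complex I subunits mt-Nd1, mt-Nd2, mt-Nd3, mt-Nd4, mt-Nd5 and mt-Nd6 rose by at most 2.29 on the log2 scale, and mt-Nd2 fell under 0 with TMM factors, as did mt-Nd3 with DESeq2's own size factors. mt-Atp8, at 0.650 against 0.501 RPM, and mt-Nd4l, at 0.692 against 0.622 RPM, did not pass. PANDORA-seq replicate 3 was the highest library for all of them but mt-Atp8, mt-Nd4l and mt-Nd6. With TMM factors 2 mitochondrial mRNAs were higher and 2 lower.

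Read starts differed between methods, which is described without a test because starts, ends and all bases were viewed before these were chosen. C as the first base made up 1.61% ± 0.283 (SD, n = 4) of nuclear rRNA reads by PANDORA-seq against 17.2% ± 3.16 (SD, n = 5) by the traditional method. For nuclear mRNA reads the share was 3.08% ± 0.370 against 14.5% ± 3.11, for mitochondrial mRNA 1.601% ± 0.251 against 13.6% ± 4.69, for C/D snoRNAs 4.91% ± 0.0272 against 13.3% ± 1.11 and for H/ACA snoRNAs 13.4% ± 4.64 against 32.2% ± 2.38. The libraries overlapped for Y RNAs and miRNA hairpins, and for snRNAs the share was higher in PANDORA-seq, at 13.6% ± 2.05 against 8.77% ± 1.29. Reads starting at the natural 5′ end of the RNA, within 5 nt, made up between 20.4% and 24.2% of C/D snoRNA reads in PANDORA-seq and between 43.04% and 64.1% in traditional RNA-seq. For other small RNAs the share was between 0.888% and 2.31% against between 9.40% and 14.6%, for Y RNAs between 59.4% and 78.0% against between 83.8% and 91.2%, for nuclear tRNAs between 64.9% and 73.9% against between 81.5% and 88.1%, and for mitochondrial tRNAs between 3.63% and 6.38% against between 11.3% and 23.2%. H/ACA snoRNAs and snRNAs overlapped between methods.

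**Figure D5:**
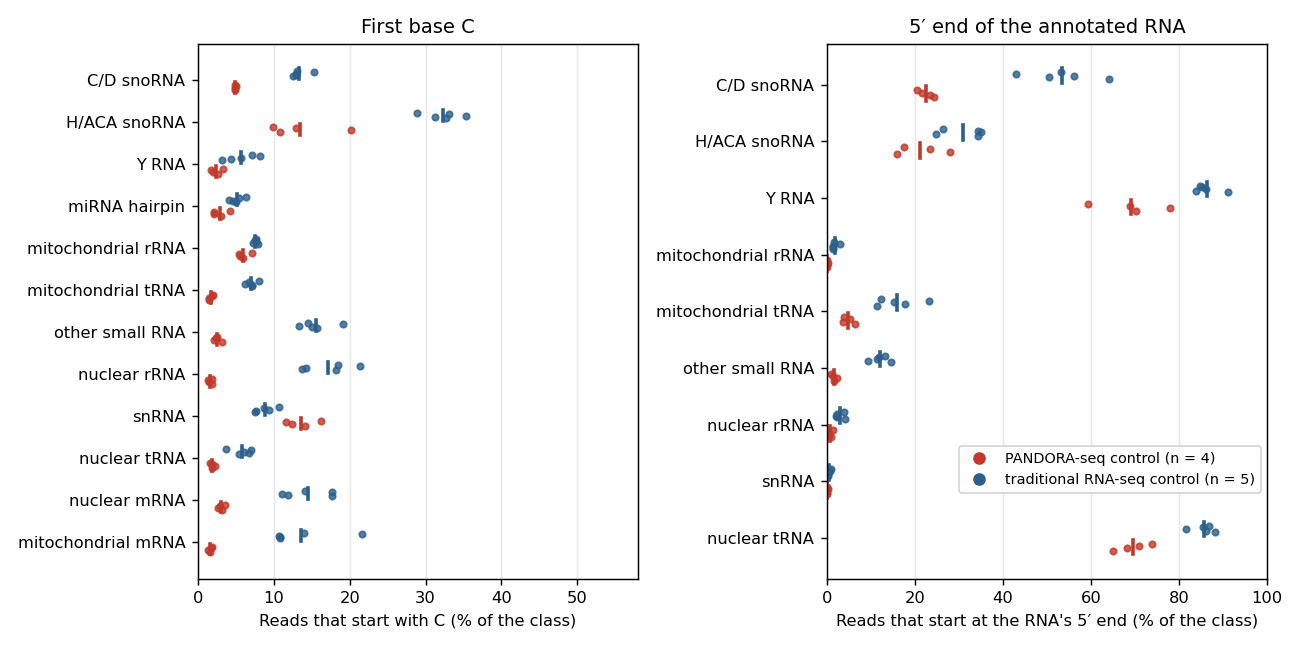
Left, share of reads whose first base is C (percent) and right, share of reads that start at the natural 5′ end of the RNA (percent), by RNA class, with a point for each PANDORA-seq and traditional control library. Nuclear rRNA reads start with C in 1.61% of PANDORA-seq and 17.2% of traditional reads on average, and C/D snoRNA reads start at the natural end less often in PANDORA-seq.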

How the data were processed

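Small RNA libraries of sperm from control mice were compared, 4 of PANDORA-seq and 5 of the traditional method. The authors deposited raw read counts of each distinct sequence of 15 to 45 nt in each library. These counts were not normalized, and the labels give mm10 as the genome build, while the study analysed its raw reads with the software SPORTS. The sources differ in the order of the AlkB and T4PNK steps.

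Sequences were matched without gaps, in the sense direction and with at most 1 mismatch, to small RNA genes, rRNAs and tRNAs of GENCODE M21 and RefSeq (GRCm38), the best match first, and then exactly and from 20 nt to mRNAs. Reads of near-identical copies were split among them. Library size was the number of all reads, and RPM values are reads per 1000000 of these. Genes and rRNA bins with at least 10 reads in at least 4 of the 9 libraries were tested with edgeR 4.0.16 in R 4.3.3 (quasi-likelihood test, Benjamini-Hochberg adjusted p below 0.1 and fold above 2). Shares were tested with two-sided exact permutation tests over 126 splits, adjusted p below 0.05. Tables were handled with pandas 2.3.3 and numpy 2.4.6, and DESeq2 1.42.0 was an alternative. In simulated counts with 200 changed genes among 11777, 79.3% of 4-fold changes were recovered with 6.13% false calls, and with 40 changed bins among 401, 100% with 9.30% false calls. Far more genes and bins were called in the data than were changed in the simulation, so these rates need not hold there.

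In each class the 3 genes with the largest mean share among those called higher, and among those called lower, were named, together with every rRNA, the listed snRNAs, Y RNAs and mitochondrial mRNAs, 3 bins of each rRNA for each method, and members of the gene lists. The blood marker Mir486a was taken from the annotated hairpins Mir486 and Mir3107. The members and lists were chosen with earlier results of these data known. First bases, natural ends, T loop mismatches, named lengths, printed fragments and the scaling without rRNA were chosen after the data were seen. Depth limits the genes with few reads. Other alternatives were TMM factors, other library sizes, no count filter, exact matches, reads of at least 18 nt, sequences read at least 2 times, mRNA reads of at least 25 nt, bins of 25 nt, the replicate number as a block and leaving out each library.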

Additional observations from a re-analysis of the deposited data

Results flagged for a closer look

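Of 186 groups of values, 16 held a library far from the others of its method by Dixon's test at the 95% level, and chance gives about 1 in 20. Traditional replicate 2 stood apart in the miRNA hairpin share at 16.94%, the other traditional libraries being between 4.542% and 7.813%, in nuclear 3′ tsRNAs with CCA at 2.246 RPM (others 0.6246 to 0.8818), in Gm26224 at 86.62 RPM (others 11.08 to 21.36), in mt-Ts2 at 163.4 RPM (others 69.52 to 92.74) and in Mir122 at 70130 RPM (others 806.0 to 10720). In PANDORA-seq, Mir122 was also highest in replicate 2, at 129.4 RPM (others 9.521 to 17.26).

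PANDORA-seq replicate 3 stood apart in mt-Te at 173.5 RPM (others 47.64 to 55.88), Gm22270 at 37.56 RPM (others 10.1 to 12.5), mt-Atp6 at 31.36 RPM (others 12.07 to 15.15), mt-Nd1 at 11.01 RPM (others 4.758 to 5.734), mt-Nd2 at 5.69 RPM (others 3.433 to 3.743), mt-Nd4 at 10.71 RPM (others 4.011 to 4.849) and mt-Nd4l at 1.041 RPM (others 0.5309 to 0.605). The 12S rRNA was lowest in PANDORA-seq replicate 1, at 841.9 RPM (others 1337 to 1416). In traditional RNA-seq, U3 was highest in replicate 3, at 257.4 RPM (others 118.7 to 149.9), and Mir3963 in replicate 1, at 335.3 RPM (others 31.57 to 95.74). The reasons were not tested.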

How the results depend on the processing

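Counts of called genes moved most with the scaling and, for higher calls, with sequences read at least 2 times, and the causes were not tested. Genes called higher numbered 1393 with TMM factors, 1295 in DESeq2 with its own size factors and 1257 with sequences read at least 2 times, and genes called lower 2357, 2523 and, with miRNA hairpin reads as library size, 333, or 2113 without a count filter. rRNA bins called higher and lower numbered 34 and 254 with rRNA reads as library size and 76 and 49 in bins of 25 nt. Leaving out a library gave between 6817 and 8367 higher and between 875 and 1002 lower genes, at least 160 higher and between 86 and 108 lower bins, between 7 and 9 RNA classes, between 16 and 22 lengths and between 3 and 7 tRNA origins (3 without PANDORA-seq replicate 3).

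Same-numbered libraries of the methods correlated at 0.0889, 0.145, 0.116 and 0.0433, which cannot decide whether they share mice. Mir122 was highest in replicate 2 of both methods. miR-148a-3p was highest in replicate 3 of PANDORA-seq and in replicate 2 of traditional RNA-seq. As shared mice are not given in the sources, the numbers were not taken as pairs. With the replicate number as a block, 7951 genes were higher and 930 lower, and 176 bins higher and 90 lower. The block left 0 RNA classes and 0 tRNA origins past the threshold, since its exact sign-flip test cannot give a p under 0.125.

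Directions turned as follows, with log2 differences. With TMM factors: U3 -0.045, Gm26461 -0.35, Mir703 -0.421, mt-Te -0.353, 5.8S -0.395, U1 -0.444, U11 -0.276, Rny3 -0.895, mt-Atp8 -1.37, mt-Nd2 -0.0291, mt-Nd4l -1.57 and Rn7sk -0.465. In DESeq2 with its own size factors: U3 -0.121, Gm26461 -0.438, Mir703 -0.476, mt-Te -0.44, 5.8S -0.47, U1 -0.522, U11 -0.34, Rny3 -0.979, mt-Atp8 -1.53, mt-Nd2 -0.107, mt-Nd3 -0.00189, mt-Nd4l -1.67 and Rn7sk -0.521. With miRNA hairpin reads as library size: Gm23301 1.15, Snord95 1.11, Snora62 0.538, Scarna17 0.321, Snora44 0.128, Gm24494 1.31, Rny1 0.934, Gm26224 0.658, Smcp 0.856, D10Wsu102e 0.831, 12S 1.43, 16S 0.54, mt-Th 0.945, U5 1.27, Gm23744 0.769, n-TVcac9 0.0984, n-TSgct5 0.361, Rmrp 2.12, U12 1.59 and U2 2.19. Exact matches turned Mir6240 to -1.12 and 5.8S to -0.736, reads of 18 to 45 nt Mir3963 to 1.31 and Rmrp to 0.00478, the scaling without rRNA Rmrp to 0.309 and U2 to 0.495, and sequences read at least 2 times mt-Atp8 to -0.63, mt-Nd4l to -1.48 and U2 to 0.00176. Per matched read, C/D snoRNAs were called lower (-0.7162 percentage points, adjusted p = 0.0349) and H/ACA snoRNAs too (-0.04643, adjusted p = 0.0194), snRNAs passed (-0.6857, adjusted p = 0.0194) and other small RNAs did not (adjusted p = 0.0556), in exact permutation tests. Over distinct sequences, 7 of the 31 lengths turned, among them 24 nt to -0.9313 and 34 nt to 1.722 percentage points. Leaving out 1 library put 30 nt between -2.795 and 0.1274 percentage points (higher without PANDORA-seq replicate 1), U2 between -0.326 and 0.0682 (higher without PANDORA-seq replicate 1 or 2) and mt-Nd4l between -0.154 and 0.849 (lower without PANDORA-seq replicate 3 or traditional replicate 1, 4 or 5).

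Depth limits genes with few reads, such as mt-Atp8, mt-Nd4l and U7, and the arms of few PANDORA-seq reads. Shares of all reads cannot separate a gain of one RNA from a loss of the others.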
